A study of Mus musculus with 6 samples.

Results

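The PI3K, Akt, mTOR and FoxO core comprised 36 of the 22081 genes in the expression table of muscle stem cells (MuSCs, which lie along the fibres and rebuild them after injury). The genes were listed by symbol from knowledge of the pathway, with no rule on their values, although earlier results of these data were known. By role they fell into 20 activators, 11 inhibitors and 5 effectors that Akt restrains. A mean of at least 5 normalized counts over the libraries was reached by 34 of the 36, and these 34 were tested. Pik3cg, a PI3K catalytic subunit of immune cells, held 0 to 4 normalized counts per library, and Inpp5d, which encodes the immune cell phosphatase SHIP1, held 2 to 8, so neither was tested.

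RNA-seq of freshly isolated MuSCs compared 3 libraries whose genotype is labelled Control (WT in their titles) with 3 labelled Taf4asKO (Taf4a-KO in their titles), to ask what inactivation of Taf4a (symbol Taf4 in the table), a subunit of the general transcription factor TFIID, does to the transcriptome of these cells. Taf4asKO mice carried a tamoxifen-inducible Cre recombinase driven by Pax7 (Pax7-CreERT) and floxed Taf4a alleles (Taf4a flox/flox), and tamoxifen removed exons 11 to 12. Controls were littermates that carried the same floxed alleles, either without the Cre or with it. Which of these genotypes the control libraries had, and whether those mice had received tamoxifen, is not given for these libraries in the sources used here. All mice were on a C57BL/6 background, of both sexes and 8 to 20 weeks old, and Cre acted only in cells with Pax7 promoter activity at the time of tamoxifen. Neither the number of animals behind a library nor their separate origin is given in the labels, so the p-values below measure the spread between these samples.

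In this pathway, insulin and insulin-like growth factor receptors act through IRS adaptors on class I PI3K, a dimer of a catalytic and a regulatory subunit that makes a phosphoinositide at the plasma membrane. The lipid brings Akt to its activating kinase PDK1, and Akt then restrains TSC2, GSK3 and the FoxO transcription factors, which leaves Rheb free to activate mTOR complex 1 (mTORC1) and protein synthesis. In MuSCs, FoxO factors are known for their part in quiescence and mTORC1 for its part in the primed state that precedes activation. Much of this control runs through phosphorylation, whereas the values here are RNA levels.

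Totals ranged from 12338676 to 14551732 normalized counts per library, and mitochondrial genes held 11.1% to 20.7% of them. The 36 genes together held 37763 to 39516 normalized counts in the control libraries and 41979 to 43991 in the libraries labelled Taf4asKO, or 0.260% to 0.333% of the total. The gene total of Taf4 was 613, 534 and 478 in the controls and 631, 565 and 574 in the libraries labelled Taf4asKO (adjusted p = 0.524). That total covers all exons, so it does not check a deletion of exons 11 to 12, and the groups are named below by their genotype labels. By genomic PCR, RT-qPCR and western blot, the study reported efficient removal of these exons and almost no Taf4a RNA or protein in Taf4asKO MuSCs. Pax7, the defining gene of MuSCs, held 12082 to 13007 normalized counts in the controls and 10363 to 11164 in the libraries labelled Taf4asKO. In RNA from a population, fewer cells of a type and less RNA per cell cannot be told apart.

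TFIID assembles at core promoters, and the sequences just before start sites were examined. These leave out the part of the core promoter at and after the start site. RefSeq (GRCm38.p6) gave a window of 250 bases before a start site for 32 of the 36 genes, with Deptor, Eif4ebp1, Foxo4 and Rps6kb2 as the others. Below are the windows of the 2 rises and the 2 falls with the lowest adjusted p among those 32, each ending at the base before the start site nearest the gene's 5′ end, written 5′ to 3′ on the strand of the gene. Capitals mark a CCAAT box (CCAAT, or ATTGG on the other strand) or a GC box (GGGCGG, or CCGCCC on the other strand). The windows lie at chr10:42276696-42276945 (minus strand) for Foxo3, chr10:21881934-21882183 (plus strand) for Sgk1, chr17:24479079-24479328 (minus strand) for Mlst8 and chr1:106171619-106171868 (plus strand) for Phlpp1.
Foxo3: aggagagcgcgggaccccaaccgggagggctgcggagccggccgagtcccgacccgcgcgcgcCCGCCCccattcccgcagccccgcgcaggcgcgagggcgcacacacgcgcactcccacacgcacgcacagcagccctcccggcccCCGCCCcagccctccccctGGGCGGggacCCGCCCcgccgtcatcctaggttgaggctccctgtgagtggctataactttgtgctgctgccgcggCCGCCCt
Sgk1: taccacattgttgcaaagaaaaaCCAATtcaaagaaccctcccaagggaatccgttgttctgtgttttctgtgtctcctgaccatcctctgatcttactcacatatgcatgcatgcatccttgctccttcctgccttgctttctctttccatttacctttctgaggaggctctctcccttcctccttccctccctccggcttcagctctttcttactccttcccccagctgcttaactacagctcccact
Mlst8: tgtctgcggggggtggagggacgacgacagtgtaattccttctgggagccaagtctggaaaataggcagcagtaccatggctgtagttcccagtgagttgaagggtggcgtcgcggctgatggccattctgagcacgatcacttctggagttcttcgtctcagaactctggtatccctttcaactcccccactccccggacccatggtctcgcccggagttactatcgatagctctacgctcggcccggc
Phlpp1: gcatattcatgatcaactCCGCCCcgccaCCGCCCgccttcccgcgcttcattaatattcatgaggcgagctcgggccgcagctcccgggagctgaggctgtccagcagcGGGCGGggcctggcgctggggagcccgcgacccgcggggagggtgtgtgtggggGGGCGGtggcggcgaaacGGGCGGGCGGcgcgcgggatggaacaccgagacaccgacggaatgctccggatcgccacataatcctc
The Foxo3 and Phlpp1 windows were GC-rich, at 76.4% and 70% G and C, and held 5 and 6 GC boxes, a pair of them overlapping in Phlpp1. The Sgk1 window held 1 CCAAT box and no GC box at 48.4% G and C, and it belonged to the most upstream of 6 start sites, whose use cannot be read from gene totals. The Mlst8 window held neither motif. Over the 32 windows, 31.2% held a CCAAT box against 33.8% of all 32851 mouse windows, and 65.6% held a GC box against 32.7%. The mouse set can hold several windows of a gene, whereas each of the 32 genes gave a single window, so these shares are of unlike sets. Of the 4 genes with a window that rose, 2 held a CCAAT box and 3 a GC box, and of the 4 that fell, 0 and 3 did. These matches describe the letters in the window and not bound sites.

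Across the 34 genes tested, rises and falls were balanced, and the genes past the threshold included activators of both directions. Relative to control, 17 genes had a positive and 17 a negative log2 fold change, with a median of 0.01 against 0.00 over all 18562 genes tested, of which 50.4% had a positive value. The threshold, an adjusted p under 0.05 with at least a 1.3-fold change, was passed by 4 genes that rose (Pik3r1, Pik3r3, Sgk1, Foxo3) and 5 that fell (Akt1, Mlst8, Inppl1, Phlpp1, Foxo4). That is 26.5% of the 34, where 12.6% of all genes tested passed (5.93% as rises and 6.71% as falls) and 19.6% of the 3833 genes whose mean lay between the quartiles of these members, 345.9 to 1380 normalized counts. When libraries of equal replicate number were paired by a block in the fit, 11 passed, with Irs2 and Inpp4b added as rises, against 18.1% of all genes (9.09% as rises and 8.98% as falls). The control and Taf4asKO values did not overlap for 20 genes, 10 in each direction, where 33.0% of all genes were separated in this way (16.6% higher and 16.4% lower). Without Control replicate 1 the count was 6, and it was 4 and 2 without Taf4asKO replicates 2 and 3. Of all genes, 9.24%, 5.25% and 5.14% passed in these fits.

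By role, 3 of the 19 activators tested rose and 2 fell (median log2 fold change 0.12), none of the 10 inhibitors rose and 2 fell (median -0.20), and 1 of the 5 effectors rose and 1 fell (median 0.13). With the replicate block, 4 activators rose and 2 fell, and 1 inhibitor rose and 2 fell. The median of the activators was 0.05 after GC and length adjustment, where that of the inhibitors was -0.10 and that of the effectors 0.27. The median of the inhibitors was -0.11 without Control replicate 1 or 2, and that of the effectors was 0.30 without Control replicate 1 and 0.00 without Taf4asKO replicate 1. The activator count was 3 without Control replicate 1, Control replicate 2 or Taf4asKO replicate 1, 2 without Taf4asKO replicate 2 and 1 without Taf4asKO replicate 3. The inhibitor count was 1 without Control replicate 1 and 0 without Taf4asKO replicate 2 or 3.

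**Figure D1:**
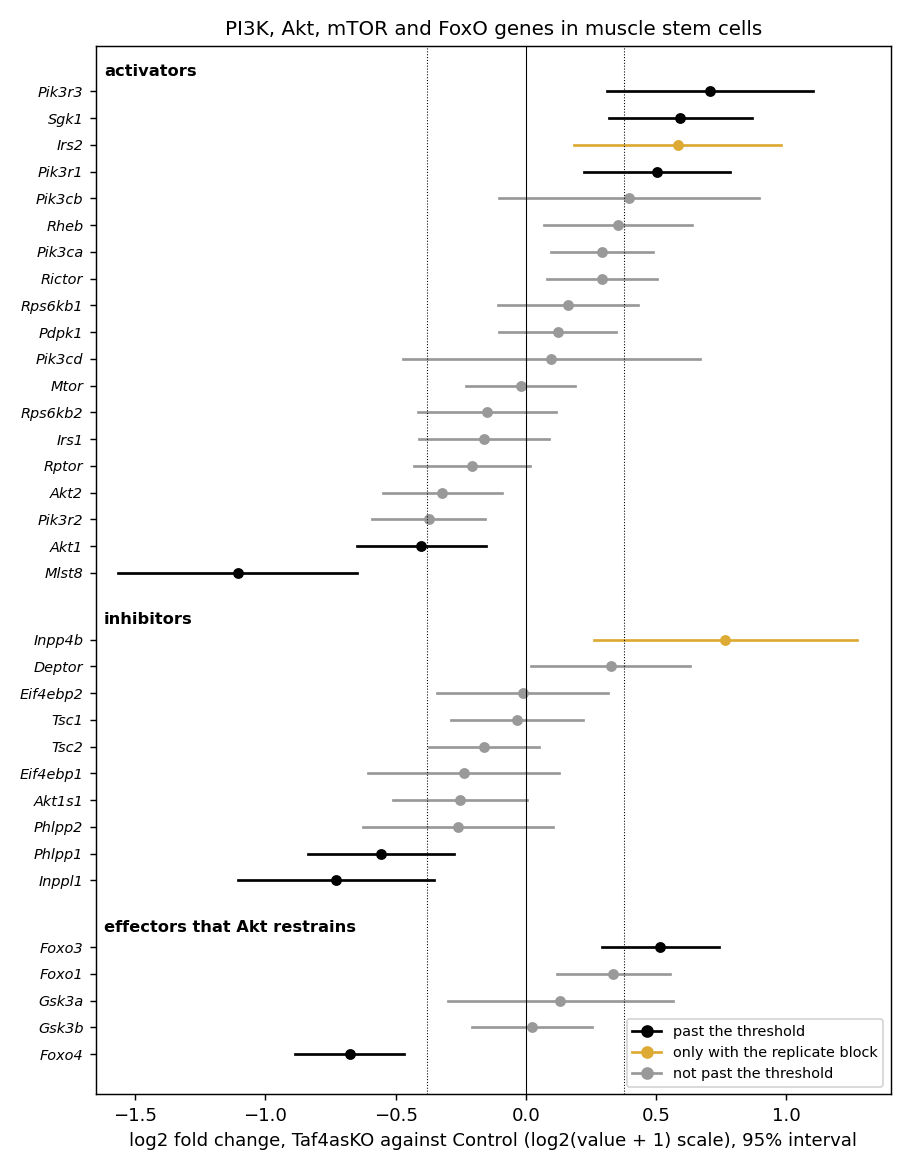
Log2 fold change of each of the 34 genes tested, Taf4asKO against Control, with its 95% interval from limma, grouped by role and sorted by size. Dotted lines mark the 1.3-fold limits. Black genes passed the threshold, yellow genes passed only with the replicate block, and grey genes did not pass, with values from -1.11 (Mlst8) to 0.77 (Inpp4b) lying on both sides of 0.

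Levels per kb of exon, which allow genes to be compared with each other, spanned 94.6-fold over the 34 genes. Irs2 was highest with a mean of 771.4 normalized counts per kb over the 6 libraries, followed by Pik3r1 (496.9), Akt1 (345.8), Foxo3 (323.5), Sgk1 (319.1) and Deptor (293.6). In the controls, the spread of Irs2 (627 ± 170, SD, n = 3) reached that of Pik3r1 (411.7 ± 58.97), and Pik3r1 and Akt1 (394.6 ± 52.44) did not differ beyond their spread. In the libraries labelled Taf4asKO the same genes stood at 915.9 ± 68.73, 582.2 ± 67.98 and 297.1 ± 7.617, and Akt1 was then below Foxo3 (381.3 ± 41.1) and Sgk1 (383.1 ± 32.97). At the low end, Pik3cb and Pik3cd lay at 8.156 and 8.841 normalized counts per kb.

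**Figure D2:**
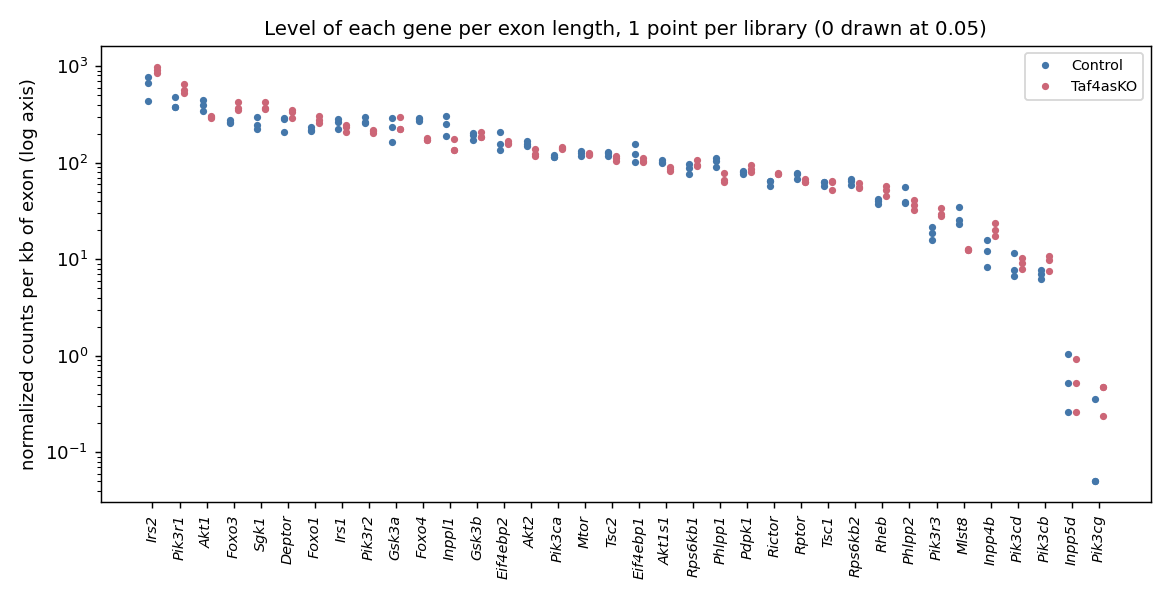
Level of each of the 36 genes in normalized counts per kb of exon on a log axis, with 1 point per library (blue Control, red Taf4asKO), ordered by the mean. Values of 0 are drawn at 0.05, and Pik3cg and Inpp5d, at 0.2571 and 0.5919, stand apart below the other genes.

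At the top of the pathway, the receptor adaptor gene Irs2 and the regulatory subunit genes Pik3r1 and Pik3r3 had higher values in the libraries labelled Taf4asKO. Irs2, whose protein links the insulin and IGF receptors to PI3K, held 4239, 2779 and 4875 normalized counts in the controls (replicates 1 to 3, in this order throughout) and 6242, 5375 and 5756 in the libraries labelled Taf4asKO. Every Taf4asKO value was above every control value, with Control replicate 2 the lowest. The log2 fold change of 0.58 ± 0.18 (SE) missed the threshold (adjusted p = 0.0585) and passed with the replicate block (adjusted p = 0.00705), when GC content and exon length were adjusted for (adjusted p = 0.0480), and without Control replicate 3 (0.75, adjusted p = 0.0239). Without Control replicate 2, the low control, it was 0.35 (adjusted p = 0.0472) and below the 1.3-fold limit. Upper-quartile and total scaling gave an adjusted p of 0.113 and 0.123, and the fits without Control replicate 1 or a library labelled Taf4asKO gave 0.0703 to 0.170. Irs1, the paralogue of the same function, overlapped between groups, with 2060 to 2562 against 1903 to 2245 normalized counts (log2 fold change -0.16, 95% interval -0.41 to 0.09). Gm9747 on the opposite strand covers 30.9% of the Irs1 exon bases, and the strand setting of the counting is not stated, so its total is uncertain to that extent.

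Pik3r1 encodes the main regulatory subunits of class I PI3K, which stabilise the catalytic subunit and bind the adaptors (chr13:101680563-101768217, minus strand). It held 3833, 3780 and 4835 normalized counts in the controls and 5323, 5643 and 6637 in the libraries labelled Taf4asKO, with no overlap. It rose by 0.50 ± 0.13 on the log2 scale (adjusted p = 0.0272, with the block 0.00218). The call was lost after GC and length adjustment (0.41, adjusted p = 0.0590), under upper-quartile (adjusted p = 0.0558) and total scaling (adjusted p = 0.0536), and without Control replicate 1 or 2 or Taf4asKO replicate 2 or 3, with adjusted p of 0.0775, 0.0509, 0.0899 and 0.128.

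Pik3r3, the gene of a less abundant regulatory subunit, held 115, 99 and 83 normalized counts in the controls and 180, 147 and 157 in the libraries labelled Taf4asKO, again with no overlap. Its rise of 0.71 ± 0.18 (adjusted p = 0.0278, with the block 0.0121) was lost after GC and length adjustment (0.61, adjusted p = 0.0615). Leaving out Control replicate 3 (adjusted p = 0.0698) or any of the libraries labelled Taf4asKO (adjusted p = 0.110, 0.0801 and 0.102 for replicates 1 to 3) also ended it. Gm49337 overlaps 24.3% of its exon bases on the same strand, so its count is uncertain. Pik3r2, the third of these genes, went the other way in every library, with 1106, 1232 and 1082 against 847, 904 and 886 normalized counts. The log2 fold change of -0.37 ± 0.10 had an adjusted p of 0.0321 but lay below the 1.3-fold limit. It went past the limit under upper-quartile scaling (-0.41, adjusted p = 0.0128) and without Control replicate 3 (-0.41, adjusted p = 0.0408). After GC and length adjustment it was -0.23 (adjusted p = 0.172, with the block 0.132), and the adjusted p was 0.0611 without Control replicate 1 and 0.104 to 0.119 without a library labelled Taf4asKO.

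Per kb of exon, the make-up of the regulatory subunit RNA differed between the groups. Pik3r1 made up 58.4% ± 4.71 (SD, n = 3) of the sum of these 3 genes in the controls and 70.6% ± 2.22 in the libraries labelled Taf4asKO, and Pik3r2 made up 39% ± 4.3 and 25.7% ± 1.83. Of the catalytic subunit genes, Pik3ca held nearly all of the RNA, at 88.1% ± 1.99 and 88.3% ± 1.33. Its level was 1034, 1033 and 1086 normalized counts in the controls and 1280, 1309 and 1272 in the libraries labelled Taf4asKO, without overlap, and the difference of 0.29 ± 0.09 did not pass (adjusted p = 0.0558). Pik3cb and Pik3cd lay between 42 and 77 normalized counts in all libraries and overlapped between groups, with 95% intervals of -0.10 to 0.90 and -0.47 to 0.67.

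**Figure D3:**
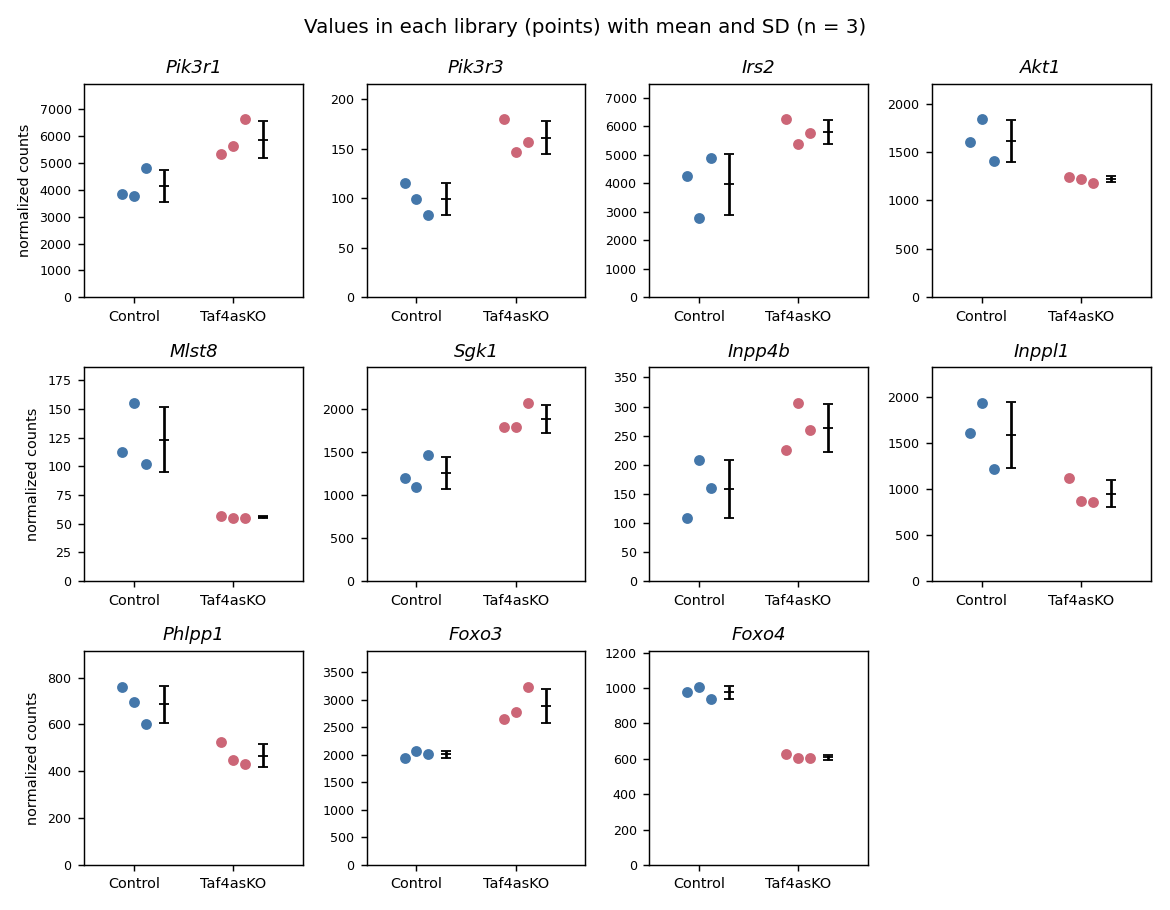
Normalized counts per library of the 11 genes that passed the threshold without or with the replicate block, with the mean and SD of each group (n = 3) beside the points and each axis starting at 0. The groups do not overlap in any panel. Taf4asKO points lie above Control for Pik3r1, Pik3r3, Irs2, Sgk1, Inpp4b and Foxo3 and below it for Akt1, Mlst8, Inppl1, Phlpp1 and Foxo4.

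Among the phosphatases that oppose PI3K and Akt, Inppl1 and Phlpp1 fell in the libraries labelled Taf4asKO, while Inpp4b was higher. Inppl1 encodes SHIP2, which removes a phosphate from the lipid product of PI3K (chr7:101822632-101838229, minus strand). It held 1609, 1939 and 1220 normalized counts in the controls and 1118, 869 and 858 in the libraries labelled Taf4asKO, so that the lowest control stood just above the highest Taf4asKO value. It fell by 0.73 on the log2 scale (SE 0.17, adjusted p = 0.0200, with the block 0.00257), and the call was lost without Taf4asKO replicate 2 or 3 (adjusted p = 0.0936 and 0.0890). Exons of Phox2a and Gm10602 on the opposite strand cover 20.3% of its exon bases, and since the strand setting of the counting is not stated its total is uncertain to that extent.

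Phlpp1 encodes a phosphatase that inactivates Akt directly (chr1:106171752-106394250, plus strand), and its start site window is printed above. It held 760, 695 and 603 normalized counts in the controls and 523, 446 and 429 in the libraries labelled Taf4asKO, with no overlap. It fell by 0.56 (SE 0.13, adjusted p = 0.0188, with the block 0.00356), and the call was lost when Control replicate 1 (adjusted p = 0.0588) or Taf4asKO replicate 2 or 3 was left out (adjusted p = 0.0925 and 0.0951). Phlpp2, its paralogue, overlapped between groups at 324 to 472 against 276 to 346 normalized counts (log2 fold change -0.26, 95% interval -0.63 to 0.11), and without Control replicate 1, the highest library, the value was -0.09.

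Inpp4b encodes a phosphatase that acts on the next lipid in the series. Its values were 108, 208 and 160 normalized counts in the controls and 225, 306 and 259 in the libraries labelled Taf4asKO, without overlap but with a wide spread in the controls. The log2 fold change of 0.77 ± 0.23, the highest of the 34 genes in the fit with all libraries, missed the threshold (adjusted p = 0.0522) and passed with the block (adjusted p = 0.00456) and without Control replicate 2 (0.99, adjusted p = 0.0150). It also passed under total scaling (adjusted p = 0.0315), upper-quartile scaling (adjusted p = 0.0497) and with no filter on the mean (adjusted p = 0.0478). It did not pass after GC and length adjustment alone (0.65, adjusted p = 0.0917), without Control replicate 1 (0.52, adjusted p = 0.117) or in the other fits that left out a library, with adjusted p up to 0.201.

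At the level of the kinases, Akt1 fell and Sgk1 rose in the libraries labelled Taf4asKO. Akt1 (chr12:112653821-112674276, minus strand) held 1602, 1839 and 1410 normalized counts in the controls and 1244, 1225 and 1183 in the libraries labelled Taf4asKO, a fall of 0.40 on the log2 scale (SE 0.11, adjusted p = 0.0405, with the block 0.0150). The groups did not overlap, and the Taf4asKO values lay close together. The call was lost after GC and length adjustment (-0.27, adjusted p = 0.146, with the block 0.0745) and in 5 of the 6 fits that left out a library. The exception was the fit without Control replicate 3 (-0.50, adjusted p = 0.0201). The others gave adjusted p of 0.0851 without Control replicate 1, 0.0966, 0.137 and 0.150 without Taf4asKO replicates 1 to 3, and a fold change below the limit without Control replicate 2 (-0.30). Akt2, which serves insulin signalling in muscle, had 1113, 1186 and 1065 against 985, 871 and 840 normalized counts, also without overlap (-0.32 ± 0.10, adjusted p = 0.0664). Pdpk1, the gene of PDK1, overlapped between groups (0.12, 95% interval -0.10 to 0.35).

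Sgk1 encodes a kinase related to Akt that depends on mTOR complex 2 and is induced by glucocorticoids and serum (chr10:21882184-21999903, plus strand). It held 1199, 1094 and 1459 normalized counts in the controls and 1784, 1786 and 2065 in the libraries labelled Taf4asKO. All Taf4asKO values exceeded all control values, and the rise was 0.59 ± 0.12 (adjusted p = 0.0123, with the block 0.00119). The call was lost without Taf4asKO replicate 3 (0.52, adjusted p = 0.0699). Of 8 glucocorticoid-induced genes listed beside it, 4 rose (Fkbp5, Mt1, Mt2, Klf9) and none fell, and the sum of the 8 was 6879 to 12018 normalized counts in the controls and 15816 to 21426 in the libraries labelled Taf4asKO. Much of this difference lay in Mt1 (994, 699 and 1541 against 6226, 4932 and 6373) and Mt2 (254, 302 and 437 against 1677, 1578 and 2033). Per1 had a negative log2 fold change (-0.08), and the other 7 had a positive one. Of 11 early genes known to be induced by tissue dissociation, 5 rose and 2 fell, and their sum was 236360 to 274498 against 341336 to 431277. The part of either in the Sgk1 result was not tested.

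Of the mTOR branch, the kinase gene itself did not pass, and the gene of 1 shared subunit fell. Mlst8, a subunit of both mTOR complexes, showed the largest change of the 34 genes in size (chr17:24473550-24479078, minus strand). It held 112, 155 and 102 normalized counts in the controls and 57, 55 and 55 in the libraries labelled Taf4asKO, which were nearly identical to each other. It fell by 1.11 on the log2 scale (SE 0.21, adjusted p = 0.00756, with the block 0.00338), and the call was kept in all 19 alternative fits, including each of the 6 that left out a library. Bricd5 on the opposite strand covers 22.5% of the Mlst8 exon bases, and without a stated strand setting that part of the total is uncertain. Mtor held 1172 to 1347 normalized counts in the controls and 1208 to 1261 in the libraries labelled Taf4asKO (-0.02, 95% interval -0.23 to 0.19).

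Rictor, which defines mTOR complex 2, and Rptor, which defines mTORC1, each had groups that did not overlap, in opposite directions. Rictor held 1102, 970 and 1086 against 1277, 1307 and 1277 normalized counts (0.29 ± 0.09, adjusted p = 0.0700). Rptor held 1054, 910 and 1024 against 841, 841 and 903 (-0.21 ± 0.10, adjusted p = 0.205). Neither passed without or with the block.

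Rheb, the TSC genes, the inhibitory subunits of the mTOR complexes and the genes of the direct mTORC1 substrates did not pass the threshold. Rheb encodes the GTPase that activates mTORC1 and held 290 to 324 normalized counts in the controls and 345 to 440 in the libraries labelled Taf4asKO (0.35 ± 0.13, adjusted p = 0.0997). Tsc1 overlapped between groups (-0.04), and Tsc2, which with Tsc1 keeps Rheb inactive, did not (1124 to 1237 against 1010 to 1114), with a log2 fold change of -0.16 (95% interval -0.37 to 0.05). Of the mTOR inhibitors bound to the complexes, Akt1s1 (PRAS40) lay lower without overlap (302 to 328 against 254 to 274, -0.25, adjusted p = 0.183). Deptor held 1862, 2578 and 2523 in the controls and 2570, 3138 and 2963 in the libraries labelled Taf4asKO. These overlapped through Taf4asKO replicate 1, and the difference of 0.33 ± 0.14 did not pass (adjusted p = 0.148, with the block 0.0262 but below the 1.3-fold limit). Without Control replicate 1, the lowest library, it was 0.18 (adjusted p = 0.400). The translation repressor genes Eif4ebp1 (-0.24) and Eif4ebp2 (-0.01) and the S6 kinase genes Rps6kb1 (0.16) and Rps6kb2 (-0.15) overlapped between groups, with adjusted p from 0.376 to 0.970. Genes on the opposite strand cover 23.7% of the Rps6kb2 exon bases, which leaves its total uncertain to that extent. Eif4ebp1 was at -0.08 without Control replicate 2.

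The FoxO genes, whose proteins Akt keeps out of the nucleus, parted in direction: Foxo3 rose and Foxo4 fell in the libraries labelled Taf4asKO. Foxo3 (chr10:42181841-42276755, minus strand) held 1952, 2073 and 2010 normalized counts in the controls and 2645, 2778 and 3238 in the libraries labelled Taf4asKO, a rise of 0.52 ± 0.10 (adjusted p = 0.00954, with the block 0.00292). The call was lost without Taf4asKO replicate 3, the highest library (0.43, adjusted p = 0.0578). Foxo4 (chrX:101254528-101260873, plus strand) held 980, 1007 and 939 against 626, 602 and 602 normalized counts, a fall of 0.68 (SE 0.09, adjusted p = 0.00191, with the block 0.00079). The spread within each Foxo4 group was small beside the difference, and the call was kept in every alternative except a 2-fold limit. Foxo1 held 1822, 1889 and 2044 against 2241, 2410 and 2618 normalized counts, without overlap. Its log2 fold change of 0.34 ± 0.10 had an adjusted p of 0.0485 (with the block 0.0189) but lay below the 1.3-fold limit, and it went past it without Control replicate 3 (0.38, adjusted p = 0.04995). The adjusted p was 0.0847 under upper-quartile scaling, 0.0755 under total scaling and 0.0773 after GC and length adjustment, and 0.0527 to 0.208 in the other fits that left out a library.

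Per kb of exon, the 3 FoxO genes each contributed between 28.9% and 36.5% of their sum in the controls. Foxo4 made up 36.5% ± 1.36 (SD, n = 3) of it in the controls and 21% ± 1.84 in the libraries labelled Taf4asKO. Foxo3 made up 34.6% ± 0.372 and 45.5% ± 1.62, and Foxo1 made up 28.9% ± 1.51 and 33.4% ± 0.587. The GSK3 genes overlapped between groups, with log2 fold changes of 0.13 for Gsk3a (95% interval -0.30 to 0.56) and 0.02 for Gsk3b (-0.21 to 0.25). For Gsk3a, 28.3% of the exon bases lie under a gene on the opposite strand, with the same uncertainty.

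Of 23 genes known as FoxO targets, listed from pathway knowledge with earlier results of these data known, 8 rose and 1 fell (39.1%, where 12.6% of all genes tested passed, 5.93% as rises and 6.71% as falls). A positive log2 fold change was found for 21 of them, against 50.4% of all genes, and the median was 0.36 against 0.00. The genes that rose were Cited2 (0.91), Klf15 (0.90), Bcl6 (0.89), Bcl2l11 (0.83), Pdk4 (0.72), Fbxo32 (0.70), Map1lc3b (0.58) and Gabarapl1 (0.54). Their proteins include transcriptional regulators (Cited2, Klf15, Bcl6), the pro-apoptotic protein BIM (Bcl2l11), a kinase that restrains pyruvate oxidation (Pdk4), a muscle ubiquitin ligase (Fbxo32) and autophagy proteins (Map1lc3b, Gabarapl1). Cited2 held 618, 606 and 858 normalized counts in the controls and 1095, 1251 and 1558 in the libraries labelled Taf4asKO. Tle1, a corepressor, fell (-0.54), and Txnip passed only with the block (0.80, adjusted p = 0.000365 against 0.186). The count was 7, 5 and 5 without Taf4asKO replicates 1, 2 and 3, where 6.72%, 5.25% and 5.14% of all genes passed. Bcl2l11 is shown in a heat map of PI3K-Akt pathway genes that the study drew from its calls on these samples, so its direction is not independent evidence, and Foxo1 is in this list as well. Markers of glial cells (5 of 6 rose, median log2 fold change 1.04, with a sum of 1307 to 3159 normalized counts in the controls and 4017 to 4980 in the libraries labelled Taf4asKO), endothelial cells (0 of 8 rose past the threshold, but 8 had a positive log2 fold change with a median of 0.998, 888 to 1313 against 1416 to 1788) and fibro-adipogenic progenitors (1 of 8 rose and 2 fell, median 0.77, 24198 to 52517 against 45080 to 65256) were also summed, and of these 3 sums the last overlapped between groups. Mural cell markers (2 of 6 rose, median log2 fold change 0.62) and myofibre markers (0 of 7 rose, median 0.33) had overlapping sums, at 24951 to 29030 against 24855 to 29088 and 1234 to 3842 against 2193 to 2768. Notch3 (15838, 13174 and 17451 against 10737, 12673 and 13457) held the largest part of the mural sum and, like Acta2, had a negative log2 fold change. The other 4 (Rgs5, Myh11, Cspg4 and Kcnj8) were each higher in the libraries labelled Taf4asKO without overlap. Of 10 haematopoietic genes, 5 had values in the expression table and were tested, and the defining gene Ptprc was not among them. Of these 5, 0 rose or fell, and the median was -0.03. Their sum was higher (476 to 584 against 702 to 949) through Lyz2 (94, 357 and 320 against 465, 729 and 483), while 3 of the 5 had a negative log2 fold change. Of the 10 MuSC genes, 3 rose (Sdc4, Vcam1, Heyl) and 3 fell (Myf5, Itga7, Cdh15), 6 had a negative log2 fold change and the median was -0.27, although their sum was higher (45775 to 48347 against 49321 to 52731). The sums of the glucocorticoid-induced and of the dissociation-induced genes, given above for Sgk1, separated the same groups, the former largely through Mt1 and Mt2. The part of these markers and of these genes in the results for FoxO targets and for the 4 genes of the core that rose was not tested.

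Of 19 other PI3K and mTOR complex subunit genes tested, 2 rose and 3 fell (26.3% of the list, against 12.6% of all genes), with a median of 0.01. Pik3c2b, the gene of a class II PI3K, fell from 627, 698 and 540 to 233, 277 and 208 normalized counts (log2 fold change -1.38, adjusted p = 0.000510). Rps6, the ribosomal protein that S6 kinases phosphorylate, fell by 1.06, and Telo2, a chaperone for kinases of the mTOR family, fell by 0.74. The lipid phosphatase genes Inpp5k (0.58) and Synj1 (0.55) rose, and Pik3r6, with at most 19 normalized counts, passed only with the block. Without Taf4asKO replicate 1 or 3 the count was 2, where 6.72% and 5.14% of all genes passed.

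Of 29 genes that carry nutrient and stress signals to mTORC1, 2 rose and 1 fell, with a median of 0.01. At 10.3% of the list, this was near the 12.6% of all genes. Ddit4, which encodes the mTORC1 inhibitor REDD1, held 231, 332 and 332 normalized counts in the controls and 826, 947 and 1802 in the libraries labelled Taf4asKO (1.93, adjusted p = 0.00173). Taf4asKO replicate 3, with the highest Ddit4 value, also had the highest sum of glucocorticoid-induced genes (21426), whose part in this was not tested. Its relative Ddit4l rose by 1.41, and Itfg2, a subunit of a complex that restrains mTORC1, fell by 0.88. Rraga passed only with the block (0.40, adjusted p = 0.0338). Without Control replicate 2, 7 rose and 1 fell, where 16.6% of all genes passed in that fit. Ddit4 is shown in the same heat map of the study, so its direction is not independent evidence either.

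Of 20 genes of insulin and IGF input, 3 rose and 3 fell (6 of 20, where 12.6% of all genes passed), with a median of 0.24. Igf2 held 1233, 1894 and 1206 normalized counts in the controls and 3533, 2983 and 3610 in the libraries labelled Taf4asKO (1.25, adjusted p = 0.00153). Igf1 held 1620, 2970 and 1388 against 325, 742 and 498 (-1.93, adjusted p = 0.00410), so the genes of these growth factors went opposite ways without overlap. Igf1 is shown in another heat map of the study. Among the IGF-binding proteins, Igfbp5 rose (8200 to 12202 against 20823 to 38059 normalized counts, adjusted p = 0.00173) and Igfbp7 rose by 0.72, while Igfbp3 fell by 1.17. Sh2b2, a receptor adaptor, fell by 0.74, and Grb10, an inhibitor of these receptors, passed only with the block (-0.54, adjusted p = 0.0135). Without Taf4asKO replicates 2 and 3 the count was 4 and 3, and without Control replicate 2 it was 9. Of all genes, 5.25%, 5.14% and 16.6% passed in these fits.

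**Figure D4:**
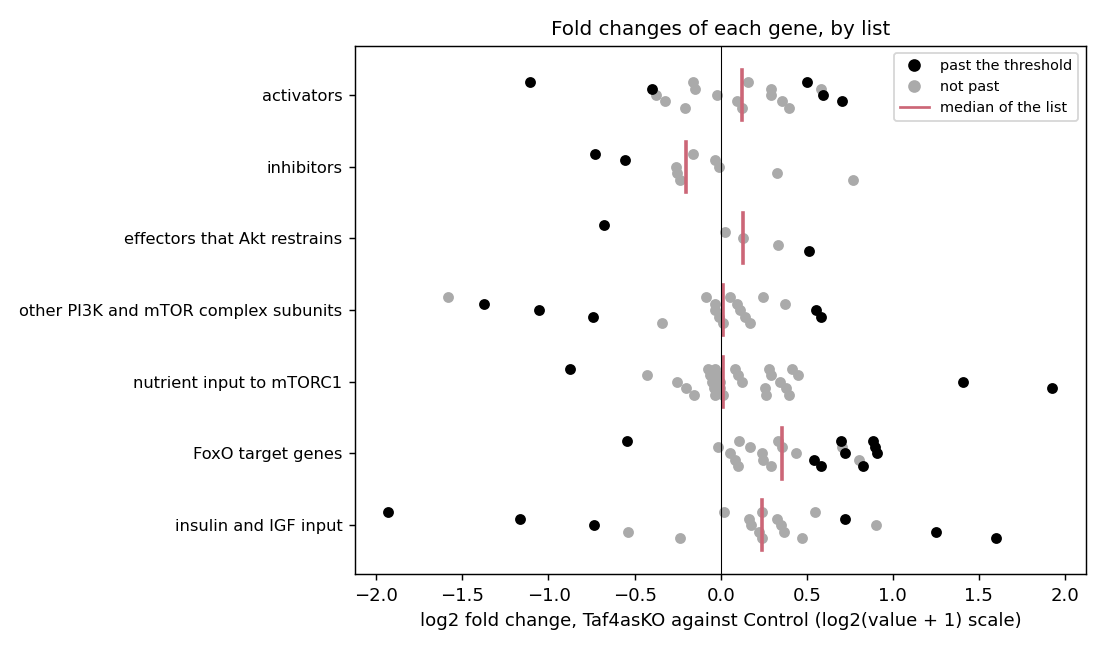
Log2 fold change (Taf4asKO against Control) of each gene tested in the 3 role groups of the core and the 4 neighbouring lists, with the median of each list as a red line and genes past the threshold in black. FoxO target genes have the highest median (0.36) and inhibitors the lowest (-0.20).

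Fold changes of the 34 genes went with the base composition of their transcripts. Of the 15 genes with under 50% GC in the longest transcript, 13 had a positive log2 fold change and 3 rose (median 0.33). Of the 19 with at least 50%, 15 had a negative log2 fold change, 1 rose and 5 fell (median -0.16). The same split was not made over all genes, so these counts have no share beside them. Spearman's rho between log2 fold change and GC content was -0.607 over the 34 genes, which share their libraries, against -0.155 over all 18532 tested genes with an exon length. With GC content and exon length adjusted for, it was -0.469. Under that adjustment 7 of the 34 passed, with Pik3r1, Pik3r3 and Akt1 lost and Irs2 gained, and with the block in addition 10 passed. The calls for Sgk1, Foxo3, Foxo4, Mlst8, Inppl1 and Phlpp1 were kept, and the cause of the relation was not tested. Of the genes that did not pass, the adjustment took Pik3ca to 0.17, Rictor to 0.18, Rptor to -0.12 and Akt1s1 to -0.11.

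**Figure D5:**
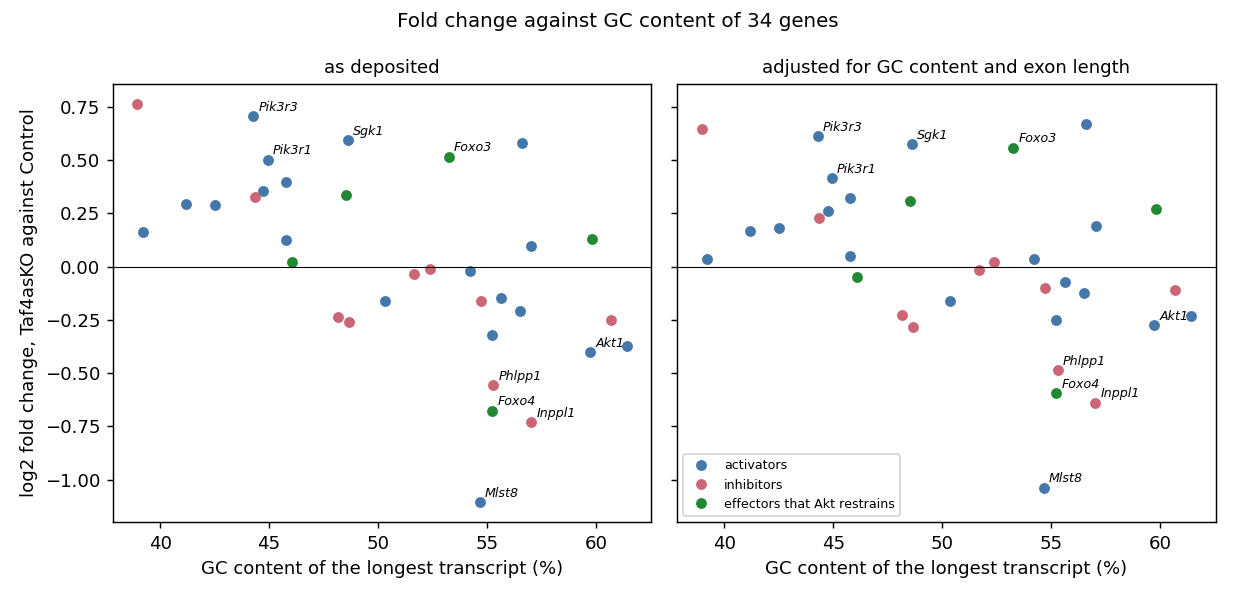
Log2 fold change (Taf4asKO against Control) of the 34 genes against the GC content of the longest transcript (%), as deposited (left) and with GC content and exon length adjusted for in each library (right), coloured by role. The rank correlation is -0.607 on the left and -0.469 on the right.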

How the data were processed

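RNA was extracted from 90000 FACS-sorted MuSCs per the labels and 10 ng entered a low-input stranded total RNA kit. MuSCs had been sorted as negative for CD45, CD31 and SCA1 and positive for integrin alpha 7 or a Pax7-zsGreen reporter. The study's re-analysis of sorted cells found incomplete purity, so RNA of other cells can be present. The purity of these libraries is not given. According to the methods and the submitters' processing notes, the authors trimmed single-end reads of 75 bases with Trimmomatic 0.39, aligned them with STAR 2.6.0c to mm10, removed reads with several positions, counted reads over exons with featureCounts 1.6.0 without those overlapping several genes, and normalized with DESeq2 1.14.1. Whether counting used the strand is not given in the sources used here.

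The deposited values are a score: counts that the authors normalized per library and rounded to whole numbers, called normalized counts here. They are not raw reads, so totals do not give the depth of a library, and the rounding limits the precision of low genes. The table held 0 value columns without a sample, and columns of fold changes or p-values were not used.

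Genes with a mean of at least 5 were tested (18562 of 22081) with limma 3.58.1 in R 4.3.3 (lmFit, eBayes with a trend, two-sided) on log2(value + 1), which understates changes of low genes, with Benjamini-Hochberg adjustment over all of them. The threshold was an adjusted p under 0.05 and at least 1.3-fold, as in the study's methods. The members and lists were chosen with earlier results of these data known. Every member is accounted for. Members past the threshold without or with the block, and the 6 with the highest level per exon length, are given in every library, and of the neighbouring lists every gene past the threshold is named. Ratios in the closing section were chosen after their values were seen.

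Replicate numbers come from the sample titles, which do not say what they share. Deviations from the group means of libraries with the same number correlated at 0.235, 0.126 and 0.15, all above 0.1. The mean of the other pairs was -0.0848, but deviations cancel within a group, which ties this value to the others. It is therefore no separate evidence, and pairing was not tested. The numbers were treated as pairing the libraries, and a replicate block was the alternative to the fit without it. Other alternatives were 3 scalings, a pseudocount of 0.1, filters, fold and p limits, no trend, a spline adjustment (5 degrees of freedom) for GC content and exon length, and leaving out each library, 19 fits in all. Exon length, GC content and overlaps came from GENCODE M21 (99.8% of genes matched), gene positions from the table, and start site windows from RefSeq. For 26 of 32 windows, the bases that follow were found in a transcript of the gene. Figures were drawn with matplotlib 3.10.9.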

Additional observations from a re-analysis of the deposited data

How the results depend on the processing

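Of 646 recomputed fold changes of members, 568 kept direction and side of the threshold, 47 lost a call, 15 gained a call and 16 changed sign. With the replicate block, which assumes that equal numbers are pairs, 11 members passed in place of 9 and 3355 genes in place of 2347. No other call of a member changed under the block. With a 2-fold limit, 850 genes, 1 member (an activator), 0 inhibitors, 0 effectors, 2 other PI3K and mTOR complex subunits and 0 FoxO targets passed. At an adjusted p limit of 0.01 these were 876 genes, 3 members, 1 activator, 0 inhibitors, 2 other subunits, 5 FoxO targets and 3 genes of insulin and IGF input. Without a trend they were 941 genes, 2 members, 1 activator, 0 inhibitors, 1 effector, 2 other subunits, 2 FoxO targets and 2 genes of insulin and IGF input. After GC and length adjustment 3 activators passed.

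Leaving out each library in turn gave 956 to 3096 genes, 2 to 11 members, 1 to 6 activators, 0 to 3 inhibitors, 1 to 3 effectors, 2 to 5 other subunits, 2 to 8 genes of nutrient input, 5 to 10 FoxO targets and 3 to 9 genes of insulin and IGF input. A group left with 2 libraries lowers the power of the test.

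Sign changes concerned members near 0. Gsk3b changed to -0.0160 under upper-quartile scaling, and under GC and length adjustment, with or without the block, it changed to -0.0462, Mtor to 0.0351 and Eif4ebp2 to 0.0212. Over the fits leaving out a library, Mtor ranged from -0.0699 to 0.0304, Pik3cd from -0.0609 to 0.32, Eif4ebp2 from -0.15 to 0.16, Gsk3a from -0.0840 to 0.32, Gsk3b from -0.0532 to 0.0753 and Tsc1 from -0.0881 to 0.0625. The cause of these changes was not tested. The GC and length adjustment moved the median of the activators to 0.05, that of the inhibitors to -0.10 and that of the effectors to 0.27. No depth per library could be given from normalized values, which limits statements on Pik3cb, Pik3cd, Mlst8 and Pik3r3, the tested members with the lowest values.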

Other observations

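Paired members of a complex or family kept a nearly fixed ratio within each group in some cases. The ratio of Rictor to Rptor normalized counts was 1.05, 1.07 and 1.06 in the control libraries (replicates 1 to 3) and 1.52, 1.55 and 1.41 in those labelled Taf4asKO, although neither gene passed the threshold alone. On the log2 scale the groups differed by 0.50, and by 0.30 after adjustment for GC content and exon length. The ratio of Foxo3 to Foxo4 was 1.99, 2.06 and 2.14 in the controls and 4.23, 4.61 and 5.38 in the libraries labelled Taf4asKO, a log2 difference of 1.19 (1.15 after the adjustment). The ratio of Pik3r1 to Pik3r2 was 3.47, 3.07 and 4.47 against 6.28, 6.24 and 7.49, a log2 difference of 0.88 (0.65 after the adjustment). The ratio of Irs2 to Irs1 was 1.75, 1.35 and 1.9 against 3.28, 2.51 and 2.56, with 30.9% of the Irs1 exon bases under a gene on the opposite strand. A ratio within a library does not depend on how that library was scaled. These ratios are descriptions with no test, picked with their values in view.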
